A study of Mesocricetus auratus with 36 samples.

Results

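The genes described here encode the SR proteins, the heterogeneous nuclear ribonucleoproteins (hnRNPs) and the core proteins of the spliceosome. They were chosen by a rule on name and level, set with earlier results of these data known. The rule takes every gene named Srsf, Hnrnp, U2af, Sf3a, Sf3b, Snrp, Prpf or Srrm, followed by a number where the family uses one. The mean had to be at least 1 count per 1000000 counts (CPM) over 36 libraries. Of 72 genes with such a name, 70 met the level, out of 32340 genes in the count tables. They comprise 11 SR protein genes, 19 hnRNP genes, 3 U2AF genes, 9 SF3A and SF3B genes, 12 Snrp genes, 13 Prpf genes and 3 Srrm genes. All 70 are annotated as protein-coding and all 70 passed the filter on low counts. The members nearest above the level were Srrm4 (1.95 CPM) and Srsf12 (2.02 CPM), and Srrm3 (0.878 CPM) and Hnrnpa0 (0.069 CPM) lay below it.

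Splicing removes introns from newly made RNA and is carried out by the spliceosome, an assembly of small nuclear RNAs and proteins that is built anew on each intron. SR proteins mostly help exons to be recognised, hnRNPs often oppose them, and phosphorylation of the arginine-serine tails of SR proteins by CLK and SRPK kinases sets their activity and place in the nucleus. Many SR protein and hnRNP transcripts can also be spliced into forms that are degraded, and the activity of CLK kinases is known to depend on temperature.

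Laser capture was used to isolate a strip of ependyma from the mediobasal hypothalamus of male golden hamsters. The strip is rich in tanycytes, glia of the wall and floor of the third ventricle. Each of 6 groups held 6 animals. Long photoperiod animals had 14 h of light and 22 °C and were 8 months old per the labels, although the protocol has some of them taken before the change of day length, at a younger age. All other animals had 10 h of light and 8 °C. The pre-hibernation group was sampled 4 weeks into these conditions, at an age of 4 months. The late pre-hibernation group, aged 6 months, was sampled after 8 to 12 weeks and had not yet entered torpor. Hibernating animals, also aged 6 months, had completed 3 torpor and arousal cycles and were sampled either 13 h into torpor or 23 h into the warm interval that separates bouts, termed interbout euthermia. Refractory animals, aged 8 months, had ceased hibernating near week 20, with the last bout 2 or more weeks before sampling. The labels name no engineered allele, and all animals had received an abdominal temperature logger. The 5 groups other than torpor are called warm. Only torpor and interbout euthermia share age, day length, ambient temperature and stage, while late pre-hibernation shares all of these with torpor except stage. Pre-hibernation and refractory animals also differ from torpid ones in age, and long photoperiod animals in age, day length and ambient temperature, so in these comparisons such differences cannot be told apart from body temperature.

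Libraries held 5161108 to 28541745 counts, with a median of 22444876. Ribosomal RNA genes took 0.219% to 0.826% of the counts in 33 libraries and 7.21%, 9.28% and 41.8% in interbout euthermia 6, pre-hibernation 5 and refractory 4. The term rRNA-rich below means these 3, and counts of changed splicing genes are also given with them left out. In the same order they held 14.3%, 11.8% and 18.3% of their counts in mitochondrial genes, against 2.02% to 3.42% in the other 33. Their totals, the lowest of the series, were 14113076, 12744682 and 5161108 counts. All 13 tanycyte markers were detected, summing to 1725 to 4511 CPM per library, and 11 neuron markers summed to 286 to 954 CPM. In bulk tissue, fewer cells of a type and less RNA per cell cannot be told apart. Levels below are normalised CPM, and comparisons between genes use RPKM, which divides by exonic length.

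Splicing genes took a narrow share of the transcriptome in every group. Outside ribosomal RNA and mitochondrial genes, the 70 members together held 0.827% to 0.977% of the counts in the 36 libraries, with a median of 0.891% in torpor and warm group medians between 0.837% (interbout euthermia) and 0.869% (pre-hibernation). Per length, the Sm ring proteins that clasp the small nuclear RNAs led, with means of 277 RPKM for Snrpg, 269 for Snrpb and 267 for Snrpn, the neuronal Sm protein. Hnrnpc, which binds uridine tracts, had the highest RPKM of the hnRNP genes (219.8), and Srsf3 of the SR protein genes (124.5). The SF3B subunit Sf3b6 stood at 199.6 RPKM and U2af1 at 142.4 RPKM. Srsf12 (0.694 RPKM) and Srrm4 (0.239 RPKM), the driver of neuronal microexons, were lowest.

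Most members had similar group means over the season. The ratio of the highest to the lowest group mean had a median of 1.24 over the members, against 1.44 over all 17926 genes tested, and it was below 1.5 for 63 of 70 members (90%) against 55.3% of all genes. The exceptions were Srrm4 (2.79), Srsf5 (2.66), Srsf12 (2.35), Prpf38b (2.20), Prpf4b (1.82), Srsf6 (1.80) and Srsf1 (1.56). With the rRNA-rich libraries left out the median was 1.20 and the same number of members lay below 1.5, with Srsf4 and Sf3b5 replacing Prpf38b and Prpf4b among the exceptions. Within groups their median coefficient of variation was 8.68% (late pre-hibernation) to 24.3% (refractory), against 17.0% to 32.0% over all genes. Genes below the level set for the members were among all genes tested, and the part of level in these differences was not tested. Torpor held the highest group mean for 27 of 70 members (38.6%, against 21.3% of all genes), and for 26 without the rRNA-rich libraries (37.1% against 23.3%). The refractory group held the lowest mean for 29 members (41.4%, against 23.7%), and for 19 without those libraries (27.1% against 19.0%). Interbout euthermia held it for 14 members (20%, against 11.5%), and for 23 without those libraries (32.9% against 14.1%). Torpor held it for 14 (20%, against 22.0%), and for 14 without those libraries (20% against 20.8%).

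**Figure D1:**
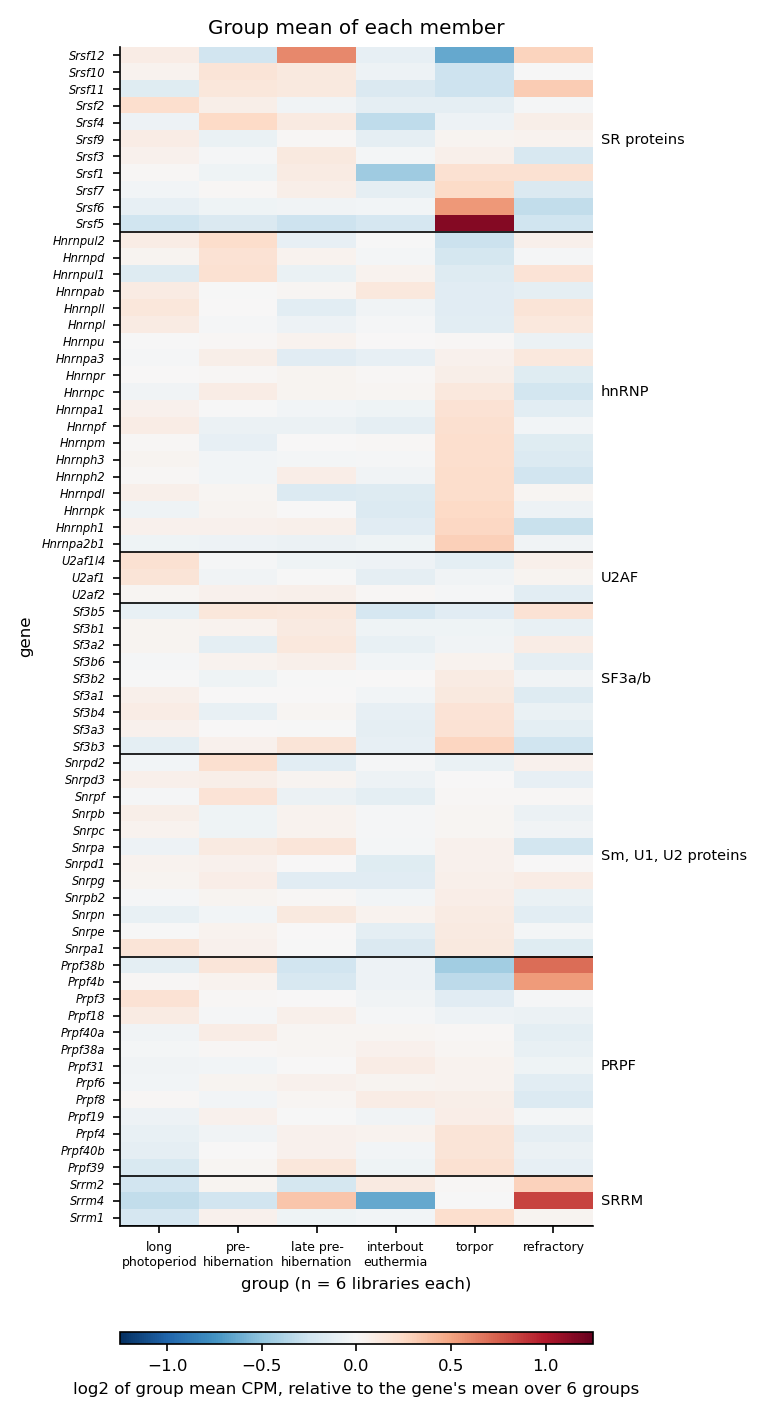
Group mean of each of the 70 members (rows, by family) in the 6 groups (columns, n = 6 libraries), as the log2 of the mean normalised CPM relative to the gene's own mean over the groups. Most rows are pale, Srsf5 and Srsf6 are highest in torpor, and the dark refractory cells of Prpf38b, Prpf4b and Srrm4 include the rRNA-rich library refractory 4.

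In torpor, the gene for the SR protein Srsf5 rose to 2.60 times its warm level, Srsf6 rose 1.57-fold, and Hnrnpa2b1 and Hnrnpdl rose 1.28-fold and 1.20-fold, while Srsf10 fell 1.24-fold. These 5 were the members that passed edgeR's quasi-likelihood test at an adjusted p under 0.05 when torpor was compared with the mean of the 5 warm groups. That is 7.14% of the members, and 9.68% of all genes tested passed, 4.07% higher and 5.61% lower. A further 12 members had an unadjusted p under 0.05, which makes 17 of 70 (24.3%, against 22.0% of all genes). The median log2 fold change was 0.06 over the members and 0.01 over all genes, and the median size of the change was 0.15 against 0.18. The sign was positive for 47 members and negative for 23, against 50.9% positive over all genes.

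For most of the other members the data bounded the torpor difference to within 1.5-fold. That range is wider than the called differences of Hnrnpa2b1, Hnrnpdl and Srsf10, so members within it were not shown to be unchanged. Of the 65 members that did not pass, 58 had a 95% interval lying wholly within a 1.5-fold difference in either direction. The other 7 were Srsf11, Srsf12, Hnrnpul2, Sf3b5, Prpf38b, Prpf4b and Srrm4, whose intervals reached further. Over all 70 members 61 intervals lay within 1.5-fold, and 54.9% of all genes tested had such an interval. The median SE was 0.102 over the members and 0.152 over all genes, which include genes of lower level.

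Without the rRNA-rich libraries 17 members passed (24.3%, against 18.4% of all genes tested), 12 higher and 5 lower (8.12% and 10.3% of all genes), and they included all 5 above. Those gained were Srsf1, Srsf7, Hnrnpa1, Hnrnph1, Hnrnph3, Hnrnpm, Srrm1 and Srrm2 (higher in torpor) and Srsf12, Prpf4b, Prpf38b and U2af1l4 (lower), with log2 fold changes of -0.79 to 0.34. The members' share was below that of all genes with all libraries and above it without these 3.

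Markers of other cell types were examined in the fit of all 36 libraries. Against the warm mean 2 of 6 astrocyte markers rose, 1 of 13 tanycyte markers fell, and no marker of neurons, oligodendrocytes, ependymal cells, microglia or endothelium passed. Summed astrocyte markers stood at 3144 to 4460 CPM in torpor and 1895 to 4303 CPM in the warm libraries. None of the 5 pituitary markers passed either, but their median log2 fold change was -2.55. They summed to 53.9 to 160.9 CPM in torpor, up to 2329.6 CPM on long photoperiod and up to 1721 CPM in refractory animals. Against interbout euthermia, where they summed to 70.8 to 181.6 CPM, their median log2 fold change was 0.18. The part of these markers in the splicing genes' differences was not tested.

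**Figure D2:**
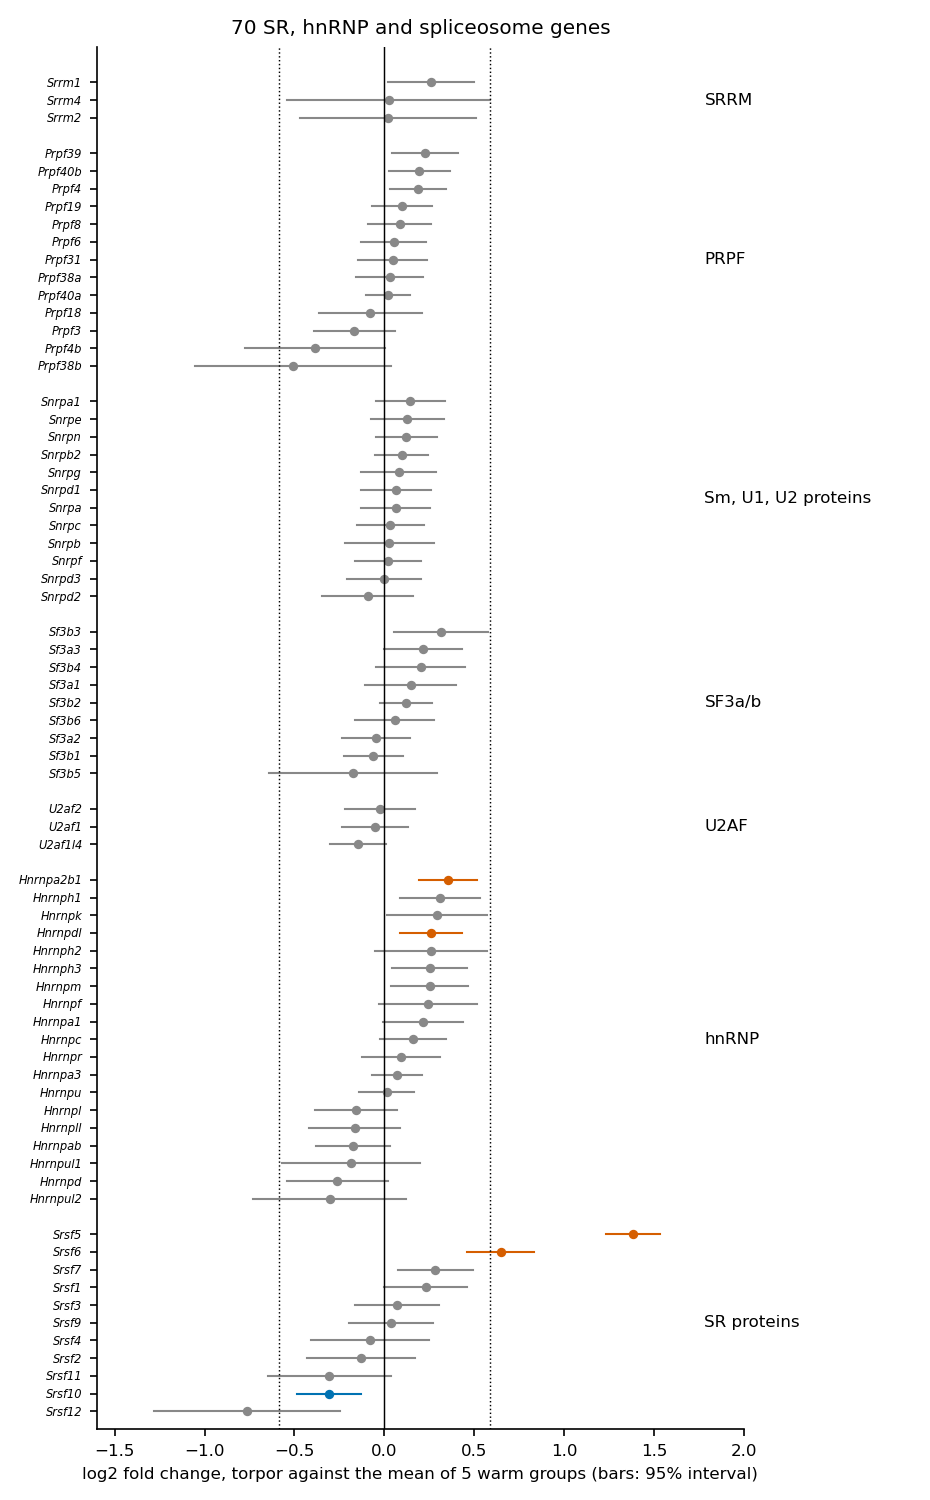
Log2 fold change of each of the 70 members in torpor against the mean of the 5 warm groups (points), with its 95% interval (bars) and family at the right. Orange genes rose and blue genes fell at an adjusted p under 0.05, and the dotted lines mark a 1.5-fold difference. Srsf5 and Srsf6 are the only members whose points lie above the upper dotted line, Srsf12 is the only one below the lower one, and all 12 Snrp intervals lie between the lines.

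Srsf5, which encodes a shuttling SR protein that binds purine-rich exon sequences, separated torpor from every other library. On long photoperiod its lowest level was 94.4, its median 109.5 and its highest 132.5 CPM, and the pre-hibernation animals gave 104.8, 115.8 and 125.7 CPM. The corresponding values were 90.8, 105.2 and 126.7 CPM in late pre-hibernation, 100.9, 111.6 and 133.5 CPM in interbout euthermia and 90.5, 109.1 and 130.1 CPM in refractory animals. In torpor they were 239.4, 284.2 and 344.3 CPM. The warm groups lay over each other and the lowest torpid library was well above the highest of 30 warm libraries. The log2 fold change against the warm mean was 1.38 ± 0.07 (SE, adjusted p = 1.01e-15), with the smallest p of all 17926 genes. Against single warm groups it ranged from 1.33 (pre-hibernation) to 1.41 (late pre-hibernation). The rRNA-rich libraries did not stand apart for this gene, and without them the difference was 1.36. The gene lies on the minus strand at 35995754 to 36000397 of its contig in assembly BCM_Maur_2.0, with 10 exon blocks that sum to 1830 bases. An exon of the gene LOC106021361 overlaps it on the opposite strand, and reads were counted without strand. That gene was at 0.788 CPM over all libraries, with 0.945 CPM in torpor and 0.754 CPM in the warm libraries.

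Srsf6, which encodes another SR protein with paired RNA-binding domains, followed with a smaller step. Its lowest, median and highest levels were 59.03, 68.0 and 78.3 CPM under long days. Pre-hibernation animals had 54.5, 72.9 and 79.4 CPM, and late pre-hibernation animals 56.01, 73.5 and 82.5 CPM. They were 57.9, 72.3 and 84.0 CPM in interbout euthermia, 34.3, 61.8 and 73.4 in refractory animals and 86.4, 104.4 and 124.2 in torpor. Again no warm library reached the lowest torpid one, although the gap was narrow (84.0 against 86.4 CPM). The log2 fold change was 0.65 ± 0.09 (adjusted p = 6.12e-06), and 0.59 without the rRNA-rich libraries, among which refractory 4 held the lowest value of the series. Srsf5 and Srsf6 were the only 2 members whose torpid libraries all exceeded every warm library, which 0.301% of all genes did, and no member had all torpid libraries below, as 0.703% of all genes did. The gene spans 9231686 to 9235283 on the plus strand of its contig, with 6 exon blocks and 1768 exonic bases.

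**Figure D3:**
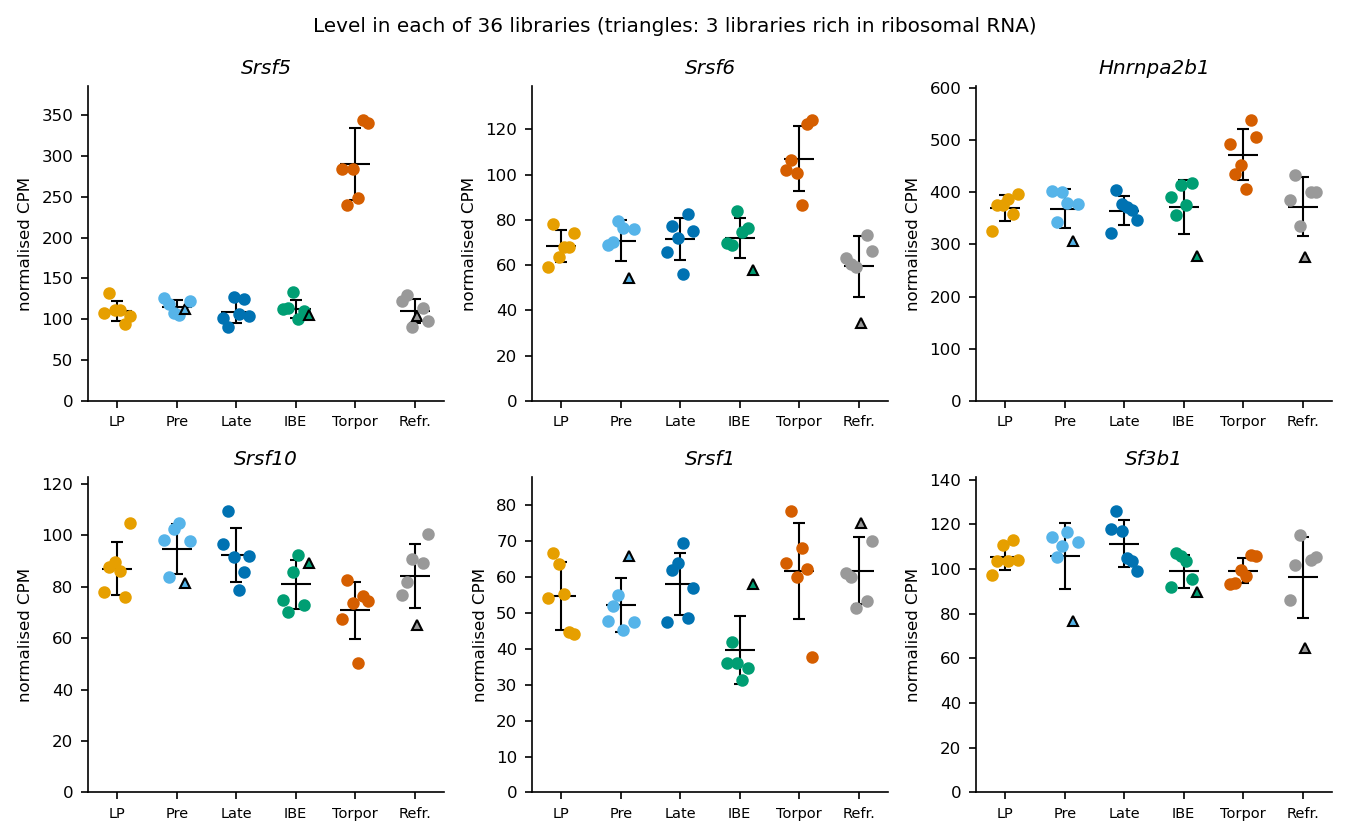
Normalised CPM of 6 members in each of 36 libraries, by group on the horizontal axis (LP long photoperiod, Pre pre-hibernation, Late late pre-hibernation, IBE interbout euthermia, Refr. refractory). Horizontal marks and bars give the mean and SD of 6 libraries, and triangles are the rRNA-rich libraries. Torpid points stand above all others for Srsf5 and Srsf6, overlap the warm points for Hnrnpa2b1, Srsf10 and Srsf1, and lie among them for Sf3b1.

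Srsf10 encodes an SR-like protein that represses splicing when dephosphorylated, as after heat shock, and it was the member that fell. The median was 87.0 CPM under long days and 97.9 and 91.7 CPM in the earlier and later pre-hibernation groups. It was 80.2 CPM between torpor bouts and 85.7 CPM in refractory animals. Torpid libraries ran from 50.3 to 82.5 CPM with a median of 74.0. The ranges overlapped, with 10 of 30 warm libraries below the highest torpid one, and interbout euthermia was the warm group nearest to torpor. The log2 fold change was -0.31 ± 0.09 (adjusted p = 0.0191). Without torpid 4, which held the lowest value, the adjusted p was 0.0939.

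Srsf12, which encodes another SR-like repressor, had few counts. Torpid libraries held 0.922 to 1.75 CPM (median 1.04), and late pre-hibernation libraries 1.45 to 4.91 CPM (median 2.92). The difference from the warm mean was -0.77 ± 0.25 on the log2 scale (adjusted p = 0.0504), and against late pre-hibernation Srsf12 fell by 1.23 (adjusted p = 0.0140). Without late pre-hibernation 4 the adjusted p was 0.0524.

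Srsf7 encodes an SR protein that also serves mRNA export. It stood at 129.6 to 163.8 CPM in torpor (median 145.9) and 54.1 to 141.6 CPM in the warm libraries, and 4 of 6 torpid libraries exceeded all warm ones. Its log2 fold change of 0.28 ± 0.10 had an adjusted p of 0.0758, and without the rRNA-rich libraries it rose by 0.21 (adjusted p = 0.00482). Srsf1, whose lowest group mean was in interbout euthermia, rose by 0.27 against the warm mean without those libraries (adjusted p = 0.0479). The other 5 SR protein genes (Srsf2, Srsf3, Srsf4, Srsf9 and Srsf11) did not pass against the warm mean with or without those libraries. Srsf3, the most expressed of them, had medians of 230.7 CPM in torpor and 216.2 to 240.6 CPM in the warm groups, with a log2 fold change of 0.07 and a 95% interval from -0.16 to 0.30. Srsf2, a nuclear speckle protein, was at a median of 20.7 CPM in torpor and 18.4 to 24.4 CPM in the warm groups. An exon of Srsf2 overlaps Mfsd11 on the opposite strand, which stood at 39.5 CPM.

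Among the hnRNP genes, 2 of 19 rose in torpor and none fell, and without the rRNA-rich libraries 6 rose and none fell. Hnrnpa2b1, whose protein packages RNA and sorts it into transport granules, had warm group medians of 369.3 (late pre-hibernation) to 392.7 CPM (refractory), with 382.7 CPM between torpor bouts. In torpor it ran from 406.8 to 539.1 CPM with a median of 472.5. Only 3 of 30 warm libraries exceeded the lowest torpid library, and 5 of 6 torpid libraries exceeded all warm ones. The log2 fold change was 0.35 ± 0.08 (adjusted p = 0.00201), with no loss of the call when any library was left out. The gene spans 114951482 to 114960346 on the minus strand of its contig and has 14 exon blocks.

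Hnrnpdl, a close relative of the AU-rich element binding protein hnRNP D, rose with overlapping ranges. Torpid libraries held 65.9 to 103.2 CPM (median 74.5) and warm libraries 45.8 to 79.9 CPM, and 16 of 30 warm libraries exceeded the lowest torpid one. The log2 fold change was 0.26 ± 0.09 (adjusted p = 0.0459), and leaving out 1 library ended the call in 28 of 36 cases. Without torpid 6 the adjusted p reached 0.287.

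The other abundant hnRNP genes did not pass against the warm mean with all libraries. Hnrnpa1, a repressor of exon inclusion, had a median of 286.7 CPM in torpor and 250.7 to 267.0 CPM in the warm groups, and its log2 fold change was 0.22 ± 0.11 (adjusted p = 0.245). Without the rRNA-rich libraries it rose by 0.15 (adjusted p = 0.0168). Hnrnpk, which binds cytidine-rich RNA, had 249.2 to 349.3 CPM in torpor and a log2 fold change of 0.29 ± 0.14 (adjusted p = 0.195). Hnrnpc and Hnrnph1 had differences of 0.16 and 0.31 (adjusted p = 0.316 and 0.0719). Hnrnpu, a nuclear scaffold protein, was level, with a median of 115.0 CPM in torpor, warm medians of 108.5 to 116.7 CPM and an interval from -0.14 to 0.17.

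The factors that recognise the end of the intron did not pass in this comparison. U2af2, which binds the polypyrimidine tract, had a median of 51.5 CPM in torpor, warm medians of 51.5 to 55.3 CPM and an interval from -0.22 to 0.17. U2af1, which contacts the AG at the intron end, had medians of 137.0 CPM in torpor and 133.7 to 161.0 CPM in the warm groups. Its paralogue U2af1l4 had its lowest group median in torpor (61.9 CPM) and its highest on long photoperiod (76.7 CPM). Its log2 difference from the warm mean was -0.15 ± 0.08 (adjusted p = 0.262), and -0.18 without the rRNA-rich libraries, where it passed (adjusted p = 0.00806).

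The products of the 9 SF3A and SF3B genes belong to the U2 particle and hold the branch point. None of these genes passed against the warm mean with or without the rRNA-rich libraries. Without those libraries Sf3b3 passed as higher in torpor than on long photoperiod. Sf3b1, the large scaffold subunit, ran from 93.3 to 106.2 CPM in torpor (median 98.3) and had warm medians of 99.4 to 111.3 CPM, with an interval from -0.22 to 0.10. Sf3b3 was the member with the smallest p, at 0.31 ± 0.13 (adjusted p = 0.126), with 77.9 to 142.7 CPM in torpor against warm medians of 74.4 to 97.3 CPM. The median log2 fold change of the 9 genes was 0.12.

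The 12 Snrp genes, for Sm ring proteins and proteins of the U1 and U2 particles, had small differences in torpor. None passed against the warm mean with or without the rRNA-rich libraries. Their log2 fold changes ran from -0.09 (Snrpd2) to 0.14 (Snrpa1), and all 12 intervals lay between -0.35 and 0.34. Without those libraries Snrpa1 passed as higher in torpor than in interbout euthermia, and Snrpn as higher than on long photoperiod. Snrpb had medians of 296.8 CPM in torpor and 299.6 to 317.0 CPM in the warm groups. Snrpg was at 130.3 CPM in torpor and 111.9 to 140.2 CPM in the warm groups. Snrpn was at 348.3 CPM in torpor and 297.9 to 347.6 CPM in the warm groups, and it overlaps an exon of Snurf on the same strand.

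Of the 13 Prpf genes none passed against the warm mean. Prpf8, the large protein at the heart of the U5 particle, ran from 129.2 to 190.7 CPM in torpor (median 148.4), with warm medians of 132.6 to 161.5 CPM and an interval from -0.09 to 0.26. Prpf19, a ubiquitin ligase of the active spliceosome, had the highest RPKM of the family (33.8) and medians of 80.0 CPM in torpor and 69.7 to 75.4 CPM in the warm groups. Prpf39, which joins the U1 particle, was at 35.98 to 48.5 CPM in torpor with a difference of 0.22 ± 0.09 (adjusted p = 0.123).

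Prpf38b, a factor of the assembling spliceosome, and the kinase gene Prpf4b had the most negative torpor differences of the 13. Prpf38b held 28.8 to 37.2 CPM in torpor (median 34.7), with warm medians of 34.8 to 43.4 CPM and single warm libraries up to 238.1 CPM. Prpf4b held 33.9 to 42.5 CPM (median 39.5), with warm medians of 41.6 to 50.1 CPM and libraries up to 184.7 CPM. Both maxima are from refractory 4. Differences from the warm mean were -0.51 ± 0.27 (adjusted p = 0.266) and -0.39 ± 0.19 (adjusted p = 0.229). Without the rRNA-rich libraries both genes fell, by 0.24 (adjusted p = 0.0229) and 0.22 (adjusted p = 0.00798) on the log2 scale.

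The Srrm genes encode large SR-related proteins, of which Srrm2 is a scaffold of nuclear speckles. Srrm1 ran from 122.4 to 160.7 CPM in torpor (median 146.6) and had warm medians of 107.2 to 123.2 CPM. Its difference was 0.26 ± 0.12 (adjusted p = 0.185), and without the rRNA-rich libraries it rose by 0.34 (adjusted p = 7.93e-05). Srrm2 had medians of 313.1 CPM in torpor and 256.6 to 287.6 CPM in the warm groups. Its difference of 0.02 with all libraries became a rise of 0.27 without the rRNA-rich ones (adjusted p = 0.0448). These libraries held 679.0, 682.1 and 1064 CPM of Srrm2.

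Against interbout euthermia, the group matched for age, light, temperature and stage, Srsf5, Srsf6 and Srsf1 rose in torpor. These were 3 of 70 members (4.29%), beside 4.06% of all genes tested, 1.13% higher. The log2 fold changes were 1.36 ± 0.11 (Srsf5, adjusted p = 7.66e-11), 0.57 ± 0.13 (Srsf6, adjusted p = 0.00445) and 0.64 ± 0.15 (Srsf1, adjusted p = 0.00766). Srsf5 and Srsf6 separated the groups fully, and 5 of 6 torpid libraries exceeded all interbout libraries for Srsf1. When these groups were fitted alone the Srsf1 adjusted p was 0.0524. Srsf1 had its lowest group mean in interbout euthermia, and torpor did not pass against any other single warm group for this gene. Hnrnpa2b1 and Hnrnpdl had differences of 0.34 and 0.38 and missed the threshold (adjusted p = 0.0515 and 0.0502). Leaving out the rRNA-rich libraries, 9 members passed (12.9%, against 8.94% of all genes), all higher in torpor, as 3.32% of all genes were. The gained members were Hnrnpa2b1, Hnrnpa3, Hnrnpdl, Snrpa1, Srrm1 and Srsf7.

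The other torpor comparisons share the torpid libraries with those above and are given as values side by side. Against long photoperiod 5 members passed (7.14%, against 9.05% of all genes), with Hnrnpa2b1, Prpf39, Srsf5 and Srsf6 higher and U2af1l4 lower. Against pre-hibernation 4 passed (5.71%, against 4.86%), with Hnrnpa2b1, Srsf5 and Srsf6 higher and Srsf10 lower. Against late pre-hibernation 6 passed (8.57%, against 4.45%), with Hnrnpa2b1, Hnrnpdl, Srsf5 and Srsf6 higher and Srsf10 and Srsf12 lower. Against the refractory group 10 passed (14.3%, against 15.2%), of which Srsf5, Srsf6, Srsf7, Hnrnpa2b1, Hnrnpc, Hnrnph1 and Sf3b3 were higher and Srsf12, Prpf4b and Prpf38b lower. Srsf5 and Srsf6 were the 2 members that passed against each warm group, and 15 passed against at least 1. The matching shares of all genes are not given here. Single comparisons passed 4.06% (interbout euthermia) to 15.2% (refractory) of all genes, so these 2 counts are descriptions only.

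Single libraries moved several of these calls. Prpf38b was -1.09 and Prpf4b -0.83 against the refractory group, and without refractory 4 they were -0.32 (adjusted p = 0.394) and -0.33 (adjusted p = 0.170). With all the rRNA-rich libraries left out, both genes again passed as lower in torpor than in the refractory group. Sf3b3 (0.50 against the refractory group) lost its call in 19 of 36 cases when 1 library was left out. Hnrnpa2b1 lost its call in 7 (long photoperiod), 8 (pre-hibernation), 7 (late pre-hibernation) and 4 (refractory) of 36. Against long photoperiod Prpf39 lost it in 9 and U2af1l4 in 7. Srsf10 lost it in 2 against pre-hibernation, and Srsf10 and Hnrnpdl in 8 each against late pre-hibernation. Srsf12, Srsf7 and Hnrnpc lost it in 6, 6 and 5 against the refractory group. Srsf5 and Srsf6 lost no call in these omissions. Without the rRNA-rich libraries the counts were 16 against long photoperiod (22.9%, beside 21.2% of all genes) and 6 against pre-hibernation (8.57%, beside 10.0%). They were 12 against late pre-hibernation (17.1%, beside 13.4%) and 17 against the refractory group (24.3%, beside 17.1%).

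Among the 5 warm groups, Srsf1 was the member that differed (1 of 70, 1.43%, against 7.48% of all genes tested). Srsf1, the founding SR protein, had a median of 54.7 CPM under long days. The earlier and later pre-hibernation groups had medians of 49.8 and 59.5 CPM, and refractory animals 60.5 CPM. In interbout euthermia it ran from 31.2 to 57.9 CPM with a median of 36.1, and the highest of these was the rRNA-rich library interbout euthermia 6. The torpid median was 63.1 CPM, with torpid 6 at 37.8 CPM. The other 5 interbout libraries, at 42.0 CPM at most, lay below all 24 libraries of the other warm groups, at 44.1 CPM at least. This split sets aside interbout euthermia 6 alone, and the rRNA-rich refractory 4 (75.0 CPM) and pre-hibernation 5 (65.7 CPM) stay among the 24. The share of all genes with such a separation is not given here, so it is a description only. The adjusted p over the warm groups was 0.0348, and it rose above 0.05 when any of interbout 1 to 5 or late pre-hibernation 3 was left out, to 0.109 at most (without interbout 4).

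With all libraries, no member passed in the comparisons run between pairs of warm groups. Interbout euthermia and the refractory group were not compared directly. By edgeR the count was 0 for pre-hibernation against long photoperiod (beside 2.29% of all genes) and 0 for late pre-hibernation against pre-hibernation (0.0%). It was 0 for interbout euthermia against late pre-hibernation (0.0%) and 0 for refractory against long photoperiod (0.329%). At an unadjusted p under 0.05 there were 1, 3, 4 and 5 members in these comparisons (1.43%, 4.29%, 5.71% and 7.14%), against 12.3%, 4.12%, 6.16% and 13.0% of all genes. DESeq2 gave 0 in all of these, and limma voom gave 4, 0, 4 and 0. With those 3 libraries left out, 9 members differed among the warm groups (12.9%, against 12.3%), Srsf1 among them with an adjusted p of 0.00279. U2af1 and U2af1l4 then fell from long photoperiod to pre-hibernation (2 of 70, 2.86%, against 2.82% of all genes that fell and 6.37% that passed), and Srsf1 and Srsf11 fell from late pre-hibernation to interbout euthermia (2.86%, against 0.441% that fell and 0.855% that passed).

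The rRNA-rich libraries stood apart across the splicing genes, in both directions. Refractory 4 lay outside the range of its 5 group mates for 59 of 70 members (17 above, 42 below), pre-hibernation 5 for 58 (23 above, 35 below) and interbout euthermia 6 for 59 (24 above, 35 below). The next library, long photoperiod 1, lay outside for 45, and the lowest for 6. In all 3 rRNA-rich libraries 14 members were above and 26 below every group mate. Such counts over all genes are not given here, so whether splicing genes differ from other genes in this was not tested. In refractory 4, for example, Srsf11 stood at 163.8 CPM beside a group median of 61.0 CPM, and Snrpb at 97.3 CPM beside a group median of 317.0 CPM. What sets these libraries apart was not tested.

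**Figure D4:**
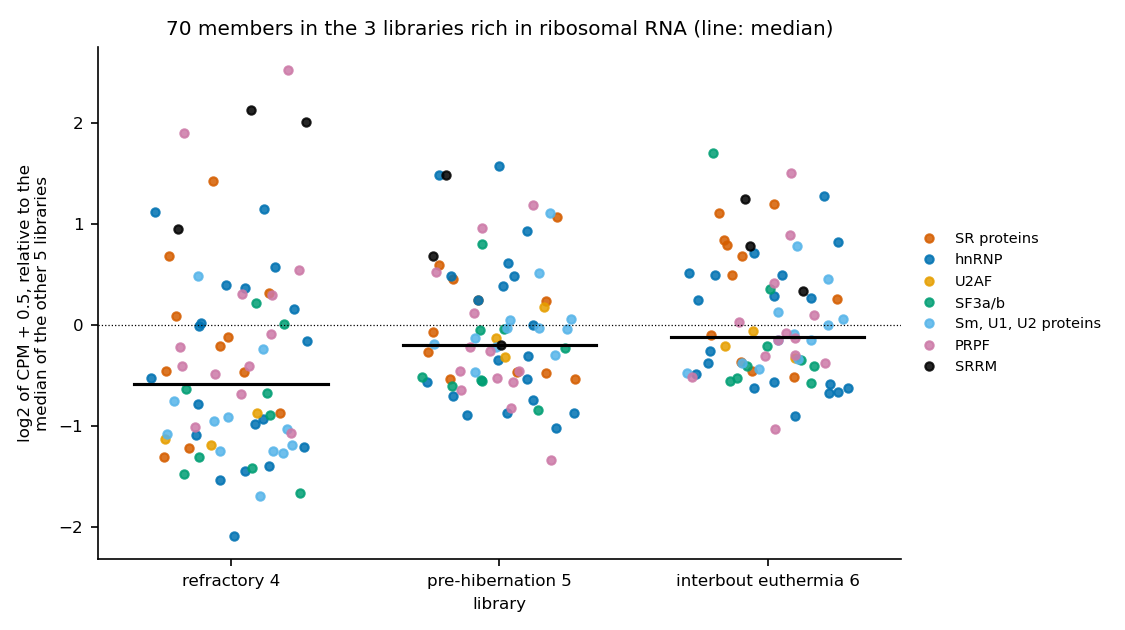
Each of the 70 members in the 3 rRNA-rich libraries, as the log2 of its CPM + 0.5 relative to the median of the other 5 libraries of the group, coloured by family. The black lines mark the medians (-0.58 in refractory 4, -0.20 in pre-hibernation 5 and -0.12 in interbout euthermia 6), and members spread to both sides, most widely in refractory 4.

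Several genes that act on or beside these factors changed in torpor. The lists were drawn up by function, with earlier results of these data known. Changed members are counted in torpor against the warm mean, where 9.68% of all genes passed. Of 17 kinases and phosphatases of SR proteins tested, 2 rose and 3 fell. Clk4, a kinase that releases SR proteins from nuclear speckles, held 18.3 to 40.1 CPM in the warm libraries and rose to between 42.5 and 56.6 CPM in torpor, without overlap (log2 fold change 0.64 ± 0.10, adjusted p = 3.88e-05). The kinase genes Dyrk1b and Dyrk2 fell by 0.92 ± 0.09 (adjusted p = 7.00e-09) and 0.85 ± 0.13 (adjusted p = 2.11e-05), and all torpid libraries lay below all warm ones. The phosphatase genes Ppp1cb and Ppp1cc had opposite signs (0.44 and -0.40), and Ppp1cb did not pass without torpid 6 (adjusted p = 0.0738), nor Ppp1cc without torpid 1 (adjusted p = 0.0843), 2, 3 or 5.

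Of 24 nuclear speckle and arginine-serine rich genes, 5 rose and 3 fell. Akap8l held 28.9 to 88.0 CPM in the warm libraries and rose to between 87.9 and 132.7 CPM in torpor (1.23 ± 0.10, adjusted p = 4.54e-11), and its relative Akap8 rose by 0.67 ± 0.08. Ccnl2 (a cyclin of splicing kinases), Bclaf1 and Thrap3 rose by 0.43, 0.43 and 0.37. Rsrp1, an arginine-serine rich protein gene, held 42.9 to 102.1 CPM in the warm libraries and fell to between 14.2 and 21.3 CPM (-1.99 ± 0.17, adjusted p = 1.87e-10), and Srek1ip1 and Rsrc2 fell by 0.72 and 0.59. The risers and fallers of this list, with Clk4 and the Dyrk genes, kept their calls in all 44 alternatives.

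Of 80 other core spliceosome and exon junction genes, 5 rose and 4 fell. The RNA helicase gene Ddx5 held 360.4 to 955.2 CPM in the warm libraries and rose to between 968.7 and 1779 CPM (0.89 ± 0.13, adjusted p = 6.89e-06). Gemin7, Dnajc17, Luc7l and Ddx39b rose by 0.66, 0.48, 0.44 and 0.29, and Crnkl1, Pdcd7, Bud13 and Zcrb1 fell by 0.61, 0.55, 0.43 and 0.22. Of 59 other splicing regulators 4 rose (Rbm3, Tra2a, Matr3 and Pspc1, by 0.47, 0.33, 0.31 and 0.27) and Ptbp3, which binds pyrimidine tracts, fell by 0.76. Tra2a, Matr3 and Rbm3 did not pass without torpid 6 (adjusted p = 0.0946, 0.0524 and 0.0997), nor Tra2a and Rbm3 without torpid 5 (adjusted p = 0.0586 and 0.0734). Among these calls Pspc1 was lost in 34, Zcrb1 in 21 and Ddx39b in 10 of 44 alternatives, and Gemin7 in 1 (without torpid 2). Of 16 genes of nonsense-mediated decay none rose and 2 fell, the decapping enzyme gene Dcp2 (-0.84 ± 0.11, adjusted p = 6.80e-07) and Smg5 (-0.42).

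Medians of the lists stayed near 0, from -0.11 (nonsense-mediated decay) to 0.01 (core spliceosome), beside 0.06 for the members. Leaving out the rRNA-rich libraries, the calls were 2 higher and 3 lower (kinases and phosphatases), 9 and 4 (speckle genes), 11 and 11 (core spliceosome), 5 and 4 (regulators) and 2 and 5 (nonsense-mediated decay), beside 18.4% of all genes.

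**Figure D5:**
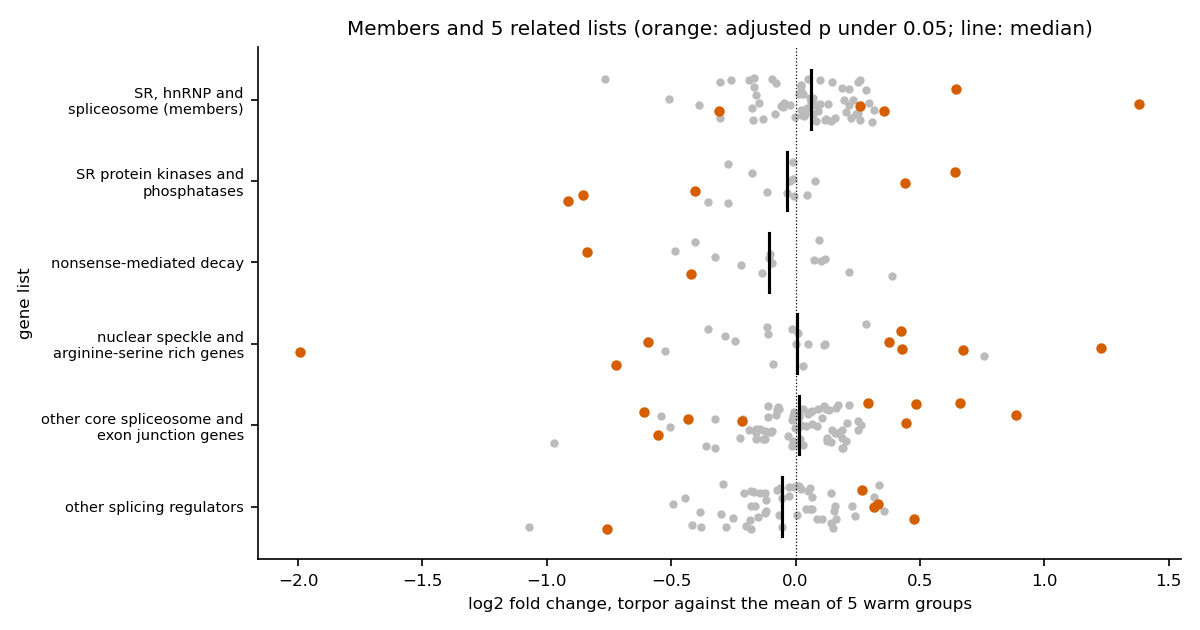
Log2 fold change in torpor against the mean of the 5 warm groups for each of the 70 members and each gene of the 5 related lists (points), with orange for an adjusted p under 0.05 and a black line for the list's median. Rsrp1 is the point at the far left, and Srsf5 and Akap8l are the points farthest right.

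The members' torpor differences were set beside features of gene structure, which their choice did not use. Across the 70 genes, Spearman's rho between the log2 fold change and exonic length was -0.03. It was -0.14 with the span of the gene and 0.13 with the number of exon blocks. With mean RPKM, which rests on the level that the choice did use, it was 0.41. These are descriptions across genes that share all libraries, so genes are not independent replicates. Counts were summed over all exons of a gene, so which isoforms of Srsf5 or any other member were made was not measured. Exons of 9 members overlap another gene, namely Hnrnpab, Hnrnph3, Prpf39, Snrpa, Snrpf, Snrpn, Srrm2, Srsf2 and Srsf5. Reads lying within the shared stretches cannot be told apart from those of the overlapping gene.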

How the data were processed

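RNA of 36 libraries, 1 per animal and 6 per group, was analysed. The authors deposited raw counts per gene, made per the file headers with featureCounts 2.0.1 from paired-end alignments, summed over exons of the RefSeq annotation of assembly BCM_Maur_2.0, without strand. No source used here gives the aligner's version. The smallest library held 5161108 counts, and the members with the largest SE against the warm mean were Srrm4 (0.28), Prpf38b (0.27) and Srsf12 (0.25).

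The members and the related lists were chosen with earlier results of these data known. After filterByExpr, which left 17926 genes, TMM factors and a robust quasi-likelihood fit over the 36 libraries were computed in edgeR 4.0.16 (R 4.3.3). Torpor was contrasted with the unweighted mean of 5 warm groups and with each group. The warm groups were tested together, and in pairs only where a pair is named above. Adjusted p values are Benjamini-Hochberg over all genes tested, with a threshold of 0.05, and stated errors are SE. Intervals are at 95%. Full values were given for members that passed, for each family's member of smallest p and highest RPKM, for the 5 of smallest p among warm groups, for fixed genes, and for the 3 genes of smallest p of each related list. Other genes named were chosen after their values were seen. Alternatives were RLE factors, DESeq2 1.42.0, limma 3.58.1 voom with quality weights, 2 other filters, the replicate block, neuron and oligodendrocyte marker covariates, the 2 groups alone, long photoperiod 1 to 3 or 4 to 6 alone, omission of each library, and omission of the 3 rRNA-rich libraries, which an earlier analysis had found. The workflow was tested on a single simulated set, with 50 genes changed at each size. Against the warm mean it recovered 22% of 1.25-fold and 72% of 1.5-fold changes, and 7.84% of its calls were false. Against interbout euthermia it recovered 6% and 44%, and 2.61% of its calls were false. Many changes of these sizes would thus not pass. No sequence is printed, because no sequence table was used here. Same-numbered libraries of different groups deviated together no more than others.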

Additional observations from a re-analysis of the deposited data

Results flagged for a closer look

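Libraries lying far from the other 5 of their group were looked for among 45 named genes in 6 groups, 270 sets of 6 libraries in all, by the gap to the nearest library as a share of the whole range. Chance marks about 1 set in 20. Of 48 sets marked, 43 were in the rRNA-rich libraries. All values are normalised CPM.

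In refractory 4, members standing high were Prpf19 89.1, Srrm1 216.9, Prpf4b 184.7, Srsf2 32.5 and Srrm2 1064. There, members standing low were Srsf6 34.3, Hnrnpc 216.9, Sf3b6 58.6, Snrpa1 17.5, Srsf3 87.0, U2af1l4 41.8, U2af1 72.3, Snrpa 33.2, Hnrnpa1 92.5 and Hnrnpk 102.4. Genes of the related lists standing high were Dyrk1b 93.5, Ptbp3 22.6, Tra2a 74.7 and Akap8l 88.0. The gene of the related lists standing low was Matr3 207.3.

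In pre-hibernation 5, members standing high were Prpf19 104.1, Srrm1 183.3, Hnrnpa3 124.8, Prpf4b 83.5, Srsf2 40.6, Hnrnpu 133.8 and Srrm2 679.0. There, members standing low were Hnrnpdl 50.7, Srsf7 90.7 and Sf3b1 76.6. Genes of the related lists standing high were Dyrk1b 84.2, Dyrk2 48.6, Dnajc17 41.5 and Rsrp1 84.99. The gene of the related lists standing low was Akap8l 32.7.

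In interbout euthermia 6, members standing high were Srrm1 187.8, Prpf4b 76.9, Srsf2 33.2 and Srrm2 682.1. There, members standing low were Srsf3 164.4 and U2af2 43.4. Genes of the related lists standing high were Dyrk1b 83.4 and Dyrk2 39.9.

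Of the other 5 marks, Prpf19 was low in torpid 4 (64.0, others 77.1 to 84.5) and Hnrnpa3 low in long photoperiod 6 (82.2, others 94.8 to 99.1). Srrm4 was high in late pre-hibernation 4 (5.04, others 1.33 to 2.40) and Hnrnpu high in late pre-hibernation 1 (139.1, others 111.2 to 118.5). Upf3b, a gene of nonsense-mediated decay, was low in refractory 3 (40.3, others 49.6 to 53.8). What sets these libraries apart was not tested.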

How the results depend on the processing

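Counts are members passing out of 70, with counts over all genes given at the end for some comparisons. Against the warm mean (5 as reported) they were 8 with DESeq2, 16 with voom, 3 without a filter, 17 without the rRNA-rich libraries, 8 with marker covariates, and 4 to 10 leaving out 1 library (10 without refractory 4). Against interbout euthermia (3) they were 5 with RLE, 6 with DESeq2, 13 with voom, 5 with the CPM filter, 9 without the rRNA-rich libraries, and 3 to 7 leaving out 1 (7 without refractory 4, 5 without pre-hibernation 5). Against long photoperiod (5) they were 21 with voom, 2 without a filter, 3 with the replicate block, 16 without the rRNA-rich libraries, 11 with the 2 groups alone, 2 with long photoperiod 1 to 3 alone, 2 with 4 to 6 alone, and 2 to 8 leaving out 1 (8 without refractory 4; 2 without long photoperiod 1 or 3, or torpid 5 or 6; 3 without long photoperiod 5, or torpid 1 or 4). Against pre-hibernation (4) they were 2 without a filter and 2 to 4 leaving out 1 (2 without pre-hibernation 4). Against late pre-hibernation (6) they were 12 with voom, 3 without a filter, 12 without the rRNA-rich libraries, and 3 to 6 leaving out 1 (3 without late pre-hibernation 1, 3 or 6, or torpid 6). Against the refractory group (10) they were 5 without a filter, 6 with the block, 17 without the rRNA-rich libraries, 2 with the 2 groups alone, and 4 to 12 leaving out 1 (4 without torpid 6, 5 without torpid 5). Among warm groups (1) they were 3 with DESeq2, 19 with voom, 2 without a filter, 0 with the block, 9 without the rRNA-rich libraries, 0 with covariates, and 0 to 4 leaving out 1 (4 without refractory 4; 2 without refractory 2, 5 or 6, or interbout euthermia 6). Pre-hibernation against long photoperiod and interbout euthermia against late pre-hibernation (0 each) each gave 4 with voom, 2 without the rRNA-rich libraries, and 0 to 1 leaving out 1 (refractory 4 and interbout euthermia 6 respectively). The causes were not tested. Late pre-hibernation against pre-hibernation and refractory against long photoperiod stayed at 0 in all alternatives run. The number of all genes passing moved too. Against the warm mean it was 1735 of 17926 as reported, 2302 with DESeq2, 3663 with voom and 1993 with marker covariates. Without a filter it was 1308 of 31426, and without the rRNA-rich libraries 3296 of 17903. Against interbout euthermia it was 728 as reported, 747 with RLE, 1153 with DESeq2, 1927 with voom and 771 of 15965 with the CPM filter. So a changed count is not by itself a result about the members.

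The replicate block rests on shared numbers only: same-numbered libraries correlated with a median of 0.004 (-0.54 to 0.63 over 90 pairs), and 4 of 36 correlated best with their own number. Over 45 named genes and 1979 alternatives, 1921 kept direction and side of the threshold, 37 lost the threshold, 21 gained it and 0 changed sign when called.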
